A study of Mus musculus with 7 samples.

Results

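Fatty acid oxidation in the liver was examined through 42 genes of the mitochondrial and peroxisomal pathways, taken from a fixed list of symbols and all found among the 14889 genes of the count table. Every one of the 42 passed the filter on low counts and was tested among 13693 genes. The livers came from 7 ApoE-/- mice of the C57BL/6 strain, aged 4 months, that all ate a Western diet over 3 months. Mice received intraperitoneal saline (n = 4) or PX-478 at 40 mg/kg (n = 3) on a schedule called bi-weekly. Both groups therefore share the loss of apolipoprotein E and the high-fat, cholesterol-rich diet, and neither a chow-fed nor a wild-type group was part of the comparison. PX-478 is a derivative of the alkylating drug melphalan that is used to lower HIF-1α, and the comparison asks how livers exposed to it differ in RNA from livers exposed to saline.

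Fatty acids are shortened by β-oxidation, in which an acyl-CoA is dehydrogenated, hydrated, oxidised again and cleaved by a thiolase. Mitochondria admit long-chain acyl groups through the carnitine shuttle and pass the electrons on through the electron transfer flavoprotein, while peroxisomes take very-long-chain and other poorly handled acyl groups and hand the shortened products on. Hepatocytes turn much of the resulting acetyl-CoA into ketone bodies. Acyl-CoA thioesterases release free fatty acid and CoA from acyl-CoA. Many of these genes are targets of PPARα, the nuclear receptor for fatty acids in the liver.

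Each library held 10285776 to 17257304 counted reads, and levels below are CPM (reads scaled to the size of each library, with TMM factors between libraries). The summed level of 10 hepatocyte markers was 39252 to 56573 CPM in saline and 37224 to 44865 CPM in PX-478, and 8 of the 10 had lower fitted values in PX-478. The 16 macrophage markers summed to 459.8 to 819 CPM in saline and 393 to 509 CPM in PX-478, with 14 of the 16 lower. Of 8 adipocyte markers, Adipoq, Plin1, Lep and Retn were not analysed here, and the other 4 summed to 47.7 to 76.3 CPM in saline and 39.0 to 49.8 CPM in PX-478. Of these 4, 2 were higher and 2 lower, and Cfd, which encodes adipsin, was the only gene of the table past the threshold in edgeR (means of 25.7 and 0.432 CPM, log2 fold change -5.89, SE 0.50, adjusted p = 0.000662). Endothelial markers summed to 237 to 306 CPM in saline and 282 to 360.2 CPM in PX-478. Stellate markers summed to 180 to 220 CPM in saline and 147 to 332 CPM in PX-478. For cholangiocyte markers the sums were 76.3 to 111 CPM in saline and 79.0 to 133 CPM in PX-478. PX-478 replicate 2, which had the fewest reads, was the highest library for both, and the part of this in its other values was not tested. Mitochondrially encoded genes took 22.4% of counts in PX-478 replicate 2 and 36.7% in PX-478 replicate 1, with the other libraries between them. Apoe itself was counted at 129.6 to 284 CPM in saline and 144 to 351 CPM in PX-478. A count per gene does not show which part of the disrupted gene those reads cover, so it does not check the knockout. In whole liver, fewer cells of a type and less RNA per cell cannot be told apart.

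No gene of the 42 passed the test across all genes (adjusted p of 0.381 to 0.989 in edgeR's quasi-likelihood test), where 0.00% of all genes passed as higher and 0.00730% as lower. Below that threshold the genes did not shift in a single direction. With PX-478, 21 had higher fitted values (49.7% of all genes did) and 21 lower, and the median of the 42 log2 values was 0.00, as over all genes. At an unadjusted p under 0.05, 7 of the 42 differed (16.7%, against 6.97% of all genes). Of these, 6 of the 42 were higher (14.3%, against 3.48% of all genes) and 1 was lower (2.38%, against 3.48%). The 6 were the peroxisomal genes Ehhadh, Acaa1b and Abcd2, the thioesterase genes Acot1 and Acot4, and the dehydrogenase gene Acad10, while the lower gene was Eci1. DESeq2 and limma-voom also called 0 of the 42, although DESeq2 called 0.315% of all genes as higher and 0.247% as lower. The number higher at an unadjusted p under 0.05 depended on single libraries. It was 3 when saline replicate 1 or 4 was left out, 2 when saline replicate 3 or either of PX-478 replicates 1 and 3 was, and 8 without PX-478 replicate 2.

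**Figure D1:**
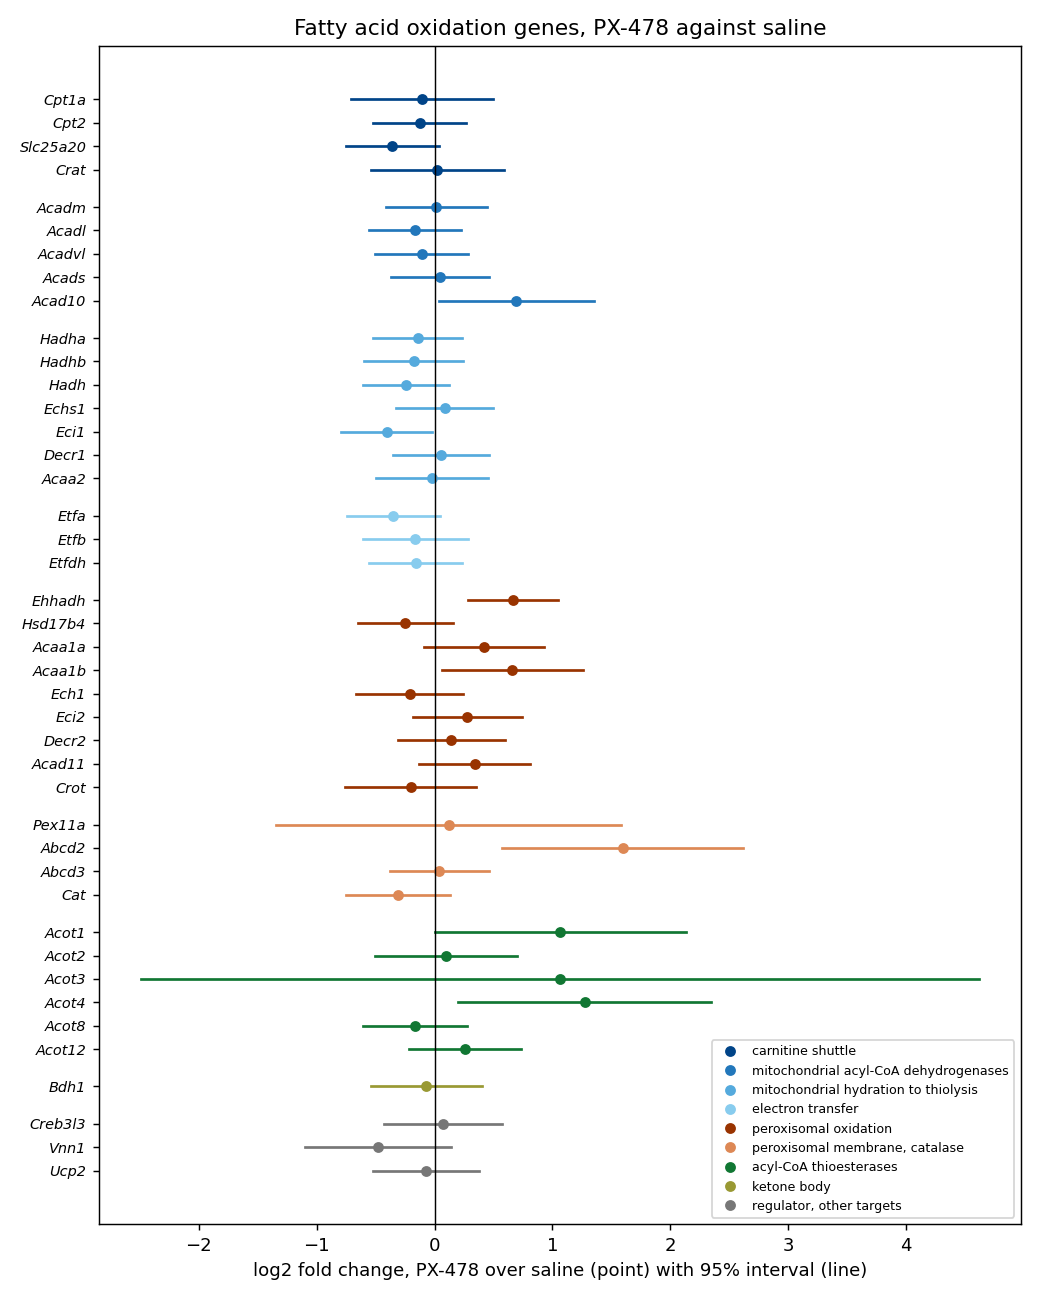
Fitted log2 fold change, PX-478 minus saline (x axis), for each of the 42 genes (y axis), grouped by role, with the 95% interval of the edgeR fit as a line. Points of the mitochondrial groups run from Eci1 at -0.41 to Acad10 at 0.69, a range that also holds Ehhadh at 0.66. Abcd2 at 1.596, Acot4 at 1.27, Acot1 at 1.07 and Acot3 at 1.06 lie to the right of it.

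Of the 4 genes of the carnitine shuttle, 3 had lower fitted values with PX-478 and Crat a value near 0. Slc25a20, the carrier that exchanges acylcarnitine for carnitine across the inner mitochondrial membrane, stood at 82.1, 88.6, 83.7 and 95.8 CPM in the saline libraries and at 54.9, 73.9 and 76.2 CPM in the PX-478 libraries. All PX-478 values were below all saline values (log2 fold change -0.36, SE 0.18, adjusted p = 0.736). Cpt1a, the malonyl-CoA-sensitive enzyme that starts the shuttle and limits its rate, varied more among saline livers than between groups, with 158, 219, 108 and 268 CPM in saline and 181, 140 and 203 CPM in PX-478. Its log2 fold change was -0.11 with a 95% interval of -0.71 to 0.50, which includes changes of either sign. Cpt2, which reforms acyl-CoA inside the mitochondrion, differed by -0.13 (SE 0.18) on the log2 scale. Crat, the acetyltransferase that buffers short acyl groups, had one of 0.02 (SE 0.26).

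The chain-length-specific acyl-CoA dehydrogenases that perform the first step were close to their saline level. Acadvl, for very long chains, was the most abundant of them per kb of exon and stood at 261, 209, 267 and 242 CPM in saline livers against 211, 218 and 253 CPM in PX-478 livers. All PX-478 values lay inside the saline range (log2 fold change -0.11, SE 0.18). Acadm, for medium chains, had a log2 fold change of 0.01 (SE 0.20), Acads, for short chains, of 0.04 (SE 0.19) and Acadl, for long chains, of -0.17 (SE 0.18). Acad10, a less studied member of the family, was the exception, at 26.4, 35.2, 13.7 and 22.2 CPM in saline livers against 45.7, 25.6 and 47.0 CPM in PX-478 livers. PX-478 replicate 2 lay within the saline range and the others above it (log2 fold change 0.69, SE 0.30, adjusted p = 0.692). Acad10 overlaps Brap in the genome, and since no use of strand is stated their reads in that overlap cannot be told apart. The same limit holds for Acaa1b, which overlaps Dlec1. Crat, Acadvl, Echs1, Etfdh, Acad11, Pex11a, Acot8 and Acot12 also overlap other genes of the count table.

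The later mitochondrial steps had slightly lower fitted values for most genes. Eci1, the isomerase that lets unsaturated chains enter the cycle, stood at 99.8, 95.9, 91.2 and 84.1 CPM in saline livers against 58.2, 74.0 and 77.7 CPM in PX-478 livers. The groups did not overlap (log2 fold change -0.41, SE 0.18, 95% interval -0.79 to -0.02, adjusted p = 0.695). Hadh, the short-chain hydroxyacyl-CoA dehydrogenase, also did not overlap, with 106 to 127 CPM in saline and 95.02 to 104.02 CPM in PX-478 livers (log2 fold change -0.24, SE 0.17). Hadha and Hadhb, the α and β subunits of the trifunctional protein that handles long chains, differed by -0.14 (SE 0.17) and -0.18 (SE 0.19) on the log2 scale. Acaa2, the mitochondrial thiolase and the most abundant gene of these steps per kb of exon, stood at 268, 182, 197 and 180 CPM in saline livers against 160, 198 and 252 CPM in PX-478 livers, where PX-478 replicate 1 lay below the saline range and the others inside it. Echs1, the short-chain hydratase, and Decr1, the dienoyl-CoA reductase, had log2 fold changes of 0.08 and 0.05.

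Electrons from the mitochondrial acyl-CoA dehydrogenases pass through the electron transfer flavoprotein. Etfb, its β subunit, stood at 467, 331, 457 and 375 CPM in saline livers against 303, 365 and 422 CPM in PX-478 livers, so the groups overlapped. Etfa, the α subunit, stood at 286, 247, 276 and 223 CPM in saline livers against 211, 184 and 211 CPM in PX-478 livers, with every PX-478 value below every saline value (log2 fold change -0.35, SE 0.18, adjusted p = 0.737). Etfdh, which transfers the electrons to ubiquinone, differed by -0.16 (SE 0.18) on the log2 scale. Across the 19 mitochondrial genes 13 were lower and 6 higher, with a median log2 fold change of -0.13 against 0.00 over all genes. Scaling libraries by their size alone moved the median of all genes by 0.15 on the log2 scale. In that setting 9 of the 19 were lower and 10 higher. The class median relative to all genes was then -0.13, against -0.12 with TMM scaling. Slc25a20, Hadh, Eci1 and Etfa were the 4 genes of the 42 whose PX-478 values all lay below saline (9.52%, against 4.29% of all genes). The hepatocyte markers had a median log2 fold change of -0.31 in the same libraries, and their part in the mitochondrial values was not tested.

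The peroxisomal genes divided between some enzymes of the cycle with higher values and others near or below saline. Ehhadh, the L-bifunctional enzyme that hydrates and dehydrogenates straight-chain acyl-CoAs, had the smallest p of the 42. Its level was 29.0, 30.8, 30.4 and 31.8 CPM in saline and 53.1, 51.4 and 40.6 CPM in PX-478, a 1.59-fold difference of means. Saline livers were tightly grouped and every PX-478 liver lay above them (log2 fold change 0.66, SE 0.17, 95% interval 0.29 to 1.04, adjusted p = 0.381). Over 19 other settings the log2 fold change of Ehhadh lay between 0.60 and 0.83, with adjusted p-values from 0.0939 in DESeq2 to 1.00. Hsd17b4, the D-bifunctional enzyme that performs the same steps for branched and very long chains and bile acid precursors, had instead a log2 fold change of -0.25 (SE 0.19). Ehhadh lies on chromosome 16 from 21761285 to 21787834 in mm10.

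Acaa1b, one of a pair of peroxisomal thiolase genes of the mouse, was the most abundant of the 42 genes per kb of exon. It stood at 1583, 2418, 1069 and 1142 CPM in saline livers against 2549, 2232 and 2581 CPM in PX-478 livers, which is 1553 ± 619 (SD, n = 4) and 2454 ± 193 CPM (SD, n = 3). Saline replicate 2 lay within the PX-478 range and the other saline livers below it (log2 fold change 0.66, SE 0.28, adjusted p = 0.683). Without saline replicate 2 the log2 fold change of Acaa1b was 0.96 and the adjusted p in edgeR 0.465, where the 19 alternatives gave adjusted p-values of 0.449 to 1.00. Its neighbour Acaa1a stood at 354 ± 104 CPM (SD, n = 4) in saline and 473 ± 59.7 CPM (SD, n = 3) in PX-478 (log2 fold change 0.42, SE 0.24). Their longest coding transcripts are 96.0% identical over the aligned 1450 bases, and 34.0% of the 50-base windows of Acaa1a occur unchanged in Acaa1b, so the split of reads between them is uncertain. Taken as a sum, the pair stood at 1964, 2905, 1319 and 1440 CPM in saline livers against 3002, 2659 and 3121 CPM in PX-478 livers. Saline replicate 2 was again the saline liver inside the PX-478 range. Acaa1b lies on chromosome 9 from 119148043 to 119157093 and Acaa1a from 119341028 to 119350296 in mm10.

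Other enzymes of the peroxisomal cycle overlapped between the groups. The genes with higher fitted values were Acad11, a dehydrogenase placed here with the peroxisomal enzymes, at a log2 fold change of 0.34 (SE 0.22), Eci2, an isomerase, at 0.28 (SE 0.21) and Decr2, the peroxisomal dienoyl-CoA reductase, at 0.14 (SE 0.21). Those with lower values were Ech1, a dienoyl-CoA isomerase, at -0.21 (SE 0.21) and Crot, which makes acylcarnitines for export from the peroxisome, at -0.20 (SE 0.26).

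Among the peroxisomal membrane genes the largest difference was that of Abcd2, a transporter of very-long-chain acyl-CoAs into the peroxisome. It was rare in all livers, with 0.781, 3.04, 2.25 and 1.75 CPM in saline and 8.36, 5.90 and 3.39 CPM in PX-478, from 12 to 35 reads per saline library and 52 to 120 reads per PX-478 library. The groups did not overlap, and the closest values were 3.04 and 3.39 CPM (log2 fold change 1.596, SE 0.47, 95% interval 0.57 to 2.62, adjusted p = 0.508). Abcd3, the far more abundant transporter of the same family, differed by 0.04 (SE 0.19) on the log2 scale. Cat, catalase, which removes the hydrogen peroxide made by peroxisomal oxidases, was the most abundant of the membrane and catalase group per kb of exon. It stood at 1487, 1381, 1223 and 1117 CPM in saline livers against 1035, 917 and 1191 CPM in PX-478 livers, with PX-478 replicate 3 inside the saline range (log2 fold change -0.31, SE 0.20). Pex11a, a factor of peroxisome division, had 6 to 37 reads per library and a 95% interval of -1.34 to 1.58. Ehhadh and Abcd2 were the 2 genes of the 42 whose PX-478 values all lay above saline (4.76%, against 4.30% of all genes).

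**Figure D2:**
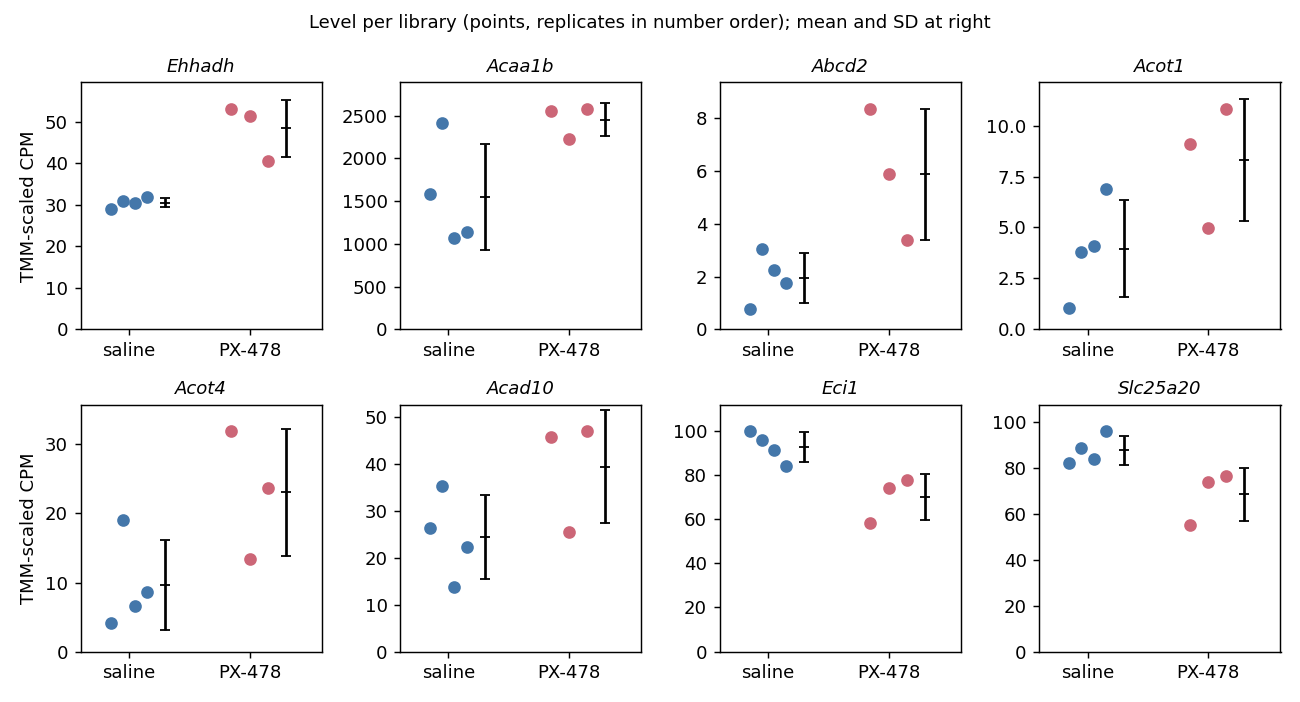
TMM-scaled CPM (y axis, starting at 0) of 8 genes in each saline and PX-478 library (points, in replicate order), with the mean and SD beside each group. Ehhadh and Abcd2 lie wholly above saline in PX-478, Eci1 and Slc25a20 wholly below, and Acaa1b, Acot1, Acot4 and Acad10 overlap in 1 or more libraries.

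Acyl-CoA thioesterases had the highest class median, 0.66 over 6 genes, with 5 higher and 1 lower. That median is the midpoint of Acot12 at 0.26 and Acot3 at 1.06, and Acot3 had a very wide interval, given below. Acot4, a peroxisomal enzyme of the chromosome 12 gene cluster with activity toward succinyl-CoA, stood at 4.17, 18.99, 6.61 and 8.65 CPM in saline livers against 31.9, 13.5 and 23.8 CPM in PX-478 livers. PX-478 replicate 2 lay below saline replicate 2, so the groups overlapped (log2 fold change 1.27, SE 0.48, adjusted p = 0.651). Acot1, the cytosolic long-chain enzyme, stood at 1.04, 3.82, 4.098 and 6.89 CPM in saline livers against 9.13, 4.99 and 10.8 CPM in PX-478 livers (log2 fold change 1.07, SE 0.49, adjusted p = 0.715). Acot3, a peroxisomal long-chain enzyme, had 0 reads in saline replicates 1 and 3, 70 and 42 reads in the other saline libraries and 134, 18 and 41 reads in PX-478. A count of 0 allows up to 0.183 CPM in saline replicate 1 and 0.177 CPM in saline replicate 3, before scaling and for counting error only. The log2 fold change of Acot3 was 1.06 with a 95% interval of -2.49 to 4.62, and -0.089 without PX-478 replicate 1. Acot2, the mitochondrial enzyme of the cluster, differed by 0.10 (SE 0.28) on the log2 scale.

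Acot1 to Acot4 lie side by side on chromosome 12, between 83987861 and 84060400 in mm10, and resemble each other. The longest coding transcripts of Acot1 and Acot2 are 94.3% identical over 1330 aligned bases and share 23.7% of the 50-base windows of Acot1, while Acot3 and Acot4 are 76.8% identical and share 3.58% of the windows of Acot3. Reads could therefore be split wrongly between Acot1 and Acot2. The 4 genes together stood at 12.4, 38.2, 17.8 and 23.9 CPM in saline livers against 57.7, 26.3 and 46.9 CPM in PX-478 livers. Saline replicates 1 and 3 were the lowest libraries for this sum and for Acot4, and PX-478 replicate 2 was the lowest of its group. Outside the cluster, Acot12, a cytosolic acetyl-CoA hydrolase and the most abundant of the 6 per kb of exon, stood at 77.2, 95.1, 69.9 and 83.3 CPM in saline livers against 109, 65.3 and 117 CPM in PX-478 livers, so PX-478 replicate 2 was the lowest and the others the highest of the 7 libraries. Acot8, a peroxisomal enzyme of broad specificity, differed by -0.17 (SE 0.20) on the log2 scale. The class median was 0.16 to 0.90 when single libraries were left out, the lowest without PX-478 replicate 1 and the highest without PX-478 replicate 2.

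PPARα binds with RXR to a direct repeat of AGGTCA spaced by a single base. The repeat AGGTCA, any base, AGGTCA was searched on both strands, with up to 2 of its 12 fixed letters allowed to differ, in RefSeq promoters of GRCm38.p6, from 250 bases before to 50 after the start. Of the 42 genes 36 had a promoter there, and 7 of these (19.4%) held such an element, against 4.403% of 27025 genes. With at most 1 letter differing it was 1 of 36 (2.78%, against 0.644%), and with 0 differing 0 of 36 (against 0.0481%). Of the genes at an unadjusted p under 0.05 only Acot4 is among the 7, and Abcd2 had no promoter entry. Bases farther from the start were not searched, so absence from the 7 does not show that a gene lacks such an element. The 7 elements are shown because they fall on genes of both directions. Each is written 5′ to 3′ on its own strand, and capitals mark the letters that differ from the motif.
Acot12: aggtGagaggtca
Acot4: CggCcaaaggtca
Cat: aggtcagagAAca
Creb3l3: aggGGagaggtca
Echs1: aggtcacGggtcC
Etfa: aggGcaaaggtAa
Slc25a20: aggtGaaaggtcG
By position from 1 at the 5′ end of the element, Acot12 differs by C5G alone, Acot4 by A1C and T4C, and Slc25a20 by C5G and A13G. The element of Slc25a20 begins at base 7, with the start counted as base 1, and the other 6 lie upstream. The genes with these elements had log2 fold changes of 1.27 for Acot4, 0.26 for Acot12, 0.08 for Echs1, 0.07 for Creb3l3, -0.31 for Cat, -0.35 for Etfa and -0.36 for Slc25a20. Presence of these letters is a description and does not show binding. For Acot4, Acot12 and Creb3l3 the start used lies inside the annotated span of the gene. The 250 bases before the start are given for Etfa, the gene with such an element upstream whose groups did not overlap, on the minus strand at chr9:55512244-55512493. Capitals mark the element, which reads on the opposite strand.
Etfa: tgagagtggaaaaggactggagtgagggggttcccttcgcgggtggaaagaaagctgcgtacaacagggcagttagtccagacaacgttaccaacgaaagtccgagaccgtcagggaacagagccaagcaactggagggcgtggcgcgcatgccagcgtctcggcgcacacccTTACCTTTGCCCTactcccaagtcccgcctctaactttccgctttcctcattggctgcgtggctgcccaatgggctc

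Taking the classes side by side, the 13 peroxisomal genes had a median log2 fold change of 0.14, with 9 higher and 4 lower, and the 19 mitochondrial genes one of -0.13. A mean log2(CPM + 0.2) over each class was also formed in every library. The mitochondrial mean was 6.37, 6.38, 6.23 and 6.36 in saline and 6.20, 6.18 and 6.40 in PX-478, so the groups overlapped. The peroxisomal mean was 6.46, 6.66, 6.42 and 6.52 in saline and 6.83, 6.66 and 6.86 in PX-478, with saline replicate 2 and PX-478 replicate 2 nearly equal. The peroxisomal mean minus the mitochondrial mean within a library was 0.09, 0.29, 0.19 and 0.16 in saline and 0.63, 0.49 and 0.46 in PX-478, a separation without overlap. Without Abcd2, the rarest gene of the class per kb, that difference was 0.62 to 0.70 in saline and 0.83 to 0.94 in PX-478. These class values describe the genes chosen and were not tested. In the wider lists below, 29 tested further peroxisomal genes had a median of -0.12 and 14 further mitochondrial genes one of -0.02. There the order of the classes was the reverse. The thioesterase mean ran from 2.22 to 3.79 in saline, a wider range than that of the other 2 classes, and between 3.195 and 4.18 in PX-478. Its lowest saline values, 2.22 and 2.57, were those of replicates 1 and 3. In these libraries Acot3 had 0 reads and entered the mean as the added 0.2 alone.

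**Figure D3:**
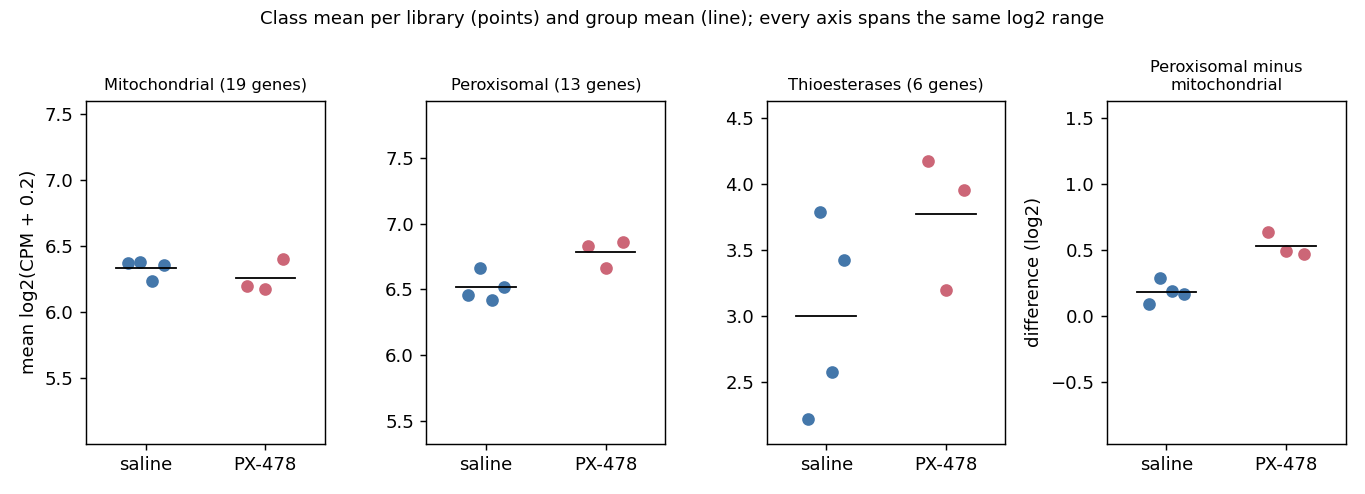
Mean log2(CPM + 0.2) of the mitochondrial, peroxisomal and thioesterase genes, and the peroxisomal minus the mitochondrial mean (y axes, all spanning the same log2 range), in each library (points) with group means (lines). The difference spans 0.09 to 0.29 in saline libraries and 0.46 to 0.63 in PX-478 libraries, while the mitochondrial means overlap.

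Genes of ketone body metabolism had lower fitted values. Bdh1, the mitochondrial enzyme that reduces acetoacetate to β-hydroxybutyrate, stood at 115, 120.0, 87.1 and 65.3 CPM in saline livers against 90.1, 94.9 and 91.6 CPM in PX-478 livers, inside the saline range (log2 fold change -0.07, SE 0.22). Of the 7 other ketone body genes 0 were higher and 7 lower, where 50.3% of all genes were lower, and 0 passed the threshold. Among the 7, Bdh2 at -0.03 (SE 0.34) and the rare Oxct1 at -0.13 (SE 0.97) had errors larger than their values. With Bdh1 added to the list the median was -0.19, against 0.00 over all genes. When libraries were scaled by size alone it was -0.050, against 0.15 over all genes, and Bdh1 turned to 0.074. The hepatocyte markers were lower in 8 of 10 cases in the same libraries, and their part in these values was not tested. Acat1, which condenses acetyl-CoA, differed by -0.19 (SE 0.18) on the log2 scale. The smallest p of that list belonged to Slc16a6, the transporter that carries β-hydroxybutyrate out of hepatocytes, at 16.7, 13.7, 17.3 and 22.2 CPM in saline and 11.5, 7.79 and 8.87 CPM in PX-478, without overlap (log2 fold change -0.90, SE 0.24, adjusted p = 0.416). It was followed by Slc16a1, a monocarboxylate transporter, at -0.49 (SE 0.28).

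The regulator Creb3l3 and the PPARα targets Vnn1 and Ucp2 overlapped between the groups. Creb3l3, a membrane-bound transcription factor of the fasting response and the most abundant of the 3 per kb of exon, stood at 298, 314, 227 and 342 CPM in saline livers against 352, 211 and 365 CPM in PX-478 livers. Vnn1, a pantetheinase that responds strongly to PPARα ligands, stood at 22.3, 51.0, 27.6 and 48.0 CPM in saline livers against 22.6, 25.8 and 31.6 CPM in PX-478 livers (log2 fold change -0.48, SE 0.29). Its fitted value was the lowest of the 42, and its PX-478 values lay within the lower part of the saline range. Ucp2, a mitochondrial carrier that Kupffer cells also express, stood at 35.5, 39.7, 44.7 and 62.3 CPM in saline livers against 43.4, 43.6 and 43.2 CPM in PX-478 livers. Saline replicate 4, the highest for Ucp2, also had the highest macrophage marker sum, 819 CPM, and the part of macrophages in Ucp2 was not tested.

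The wider pathway gave 0 genes past the threshold in any list. Of 29 tested further peroxisomal genes, 12 were higher and 17 lower (median -0.12). The smallest p-values of that list belonged to Pex7, an import receptor, at -0.72 (SE 0.25), and Scp2, the sterol carrier and thiolase of branched chains, at -0.55 (SE 0.20). Of 14 further mitochondrial genes 6 were higher and 8 lower (median -0.02). The smallest p-values among these belonged to Acsm3, a medium-chain acyl-CoA synthetase, at 1.14 (SE 0.27, adjusted p = 0.269), and Nnt, the nicotinamide nucleotide transhydrogenase, at 0.62 (SE 0.22). Of 7 genes of carnitine supply and entry control 5 were higher, with the smallest p-values for Cpt1c at 1.25 (SE 0.66) and Acacb, which makes malonyl-CoA at the mitochondrion, at 1.01 (SE 0.65). Of 18 genes of the PPARα axis 13 were higher and 5 lower (median 0.09), with the smallest p-values for Cyp4a31, a fatty acid hydroxylase with close copies, at 1.05 (SE 0.35), and Nr1h4, the bile acid receptor FXR, at 0.61 (SE 0.24). Ppara itself stood at 168, 175, 84.9 and 183 CPM in saline livers against 187, 112 and 209 CPM in PX-478 livers (log2 fold change 0.15, SE 0.28), so its groups overlapped.

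Per kb of exon, which allows levels of different genes to be compared, the order in saline was led by Acaa1b at 919 CPM per kb, Cat at 498 and Etfb at 456. The saline ranges of Cat, from 428 to 569 CPM per kb, and Etfb, from 371 to 523, overlapped. Acaa1a at 201 and Etfa at 185 CPM per kb followed, with overlapping ranges, and then Acaa2 at 136. At the lower end stood Acot3 at 0.633, Pex11a at 0.529 and Abcd2 at 0.353 CPM per kb. Ehhadh ranked 33 of 42 at 10.2 CPM per kb, far below Hsd17b4 at 75.0. Of the summed CPM of all 42 genes, Acaa1b alone made 17.3% to 29.5% in saline and 30.6% to 33.3% in PX-478.

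**Figure D4:**
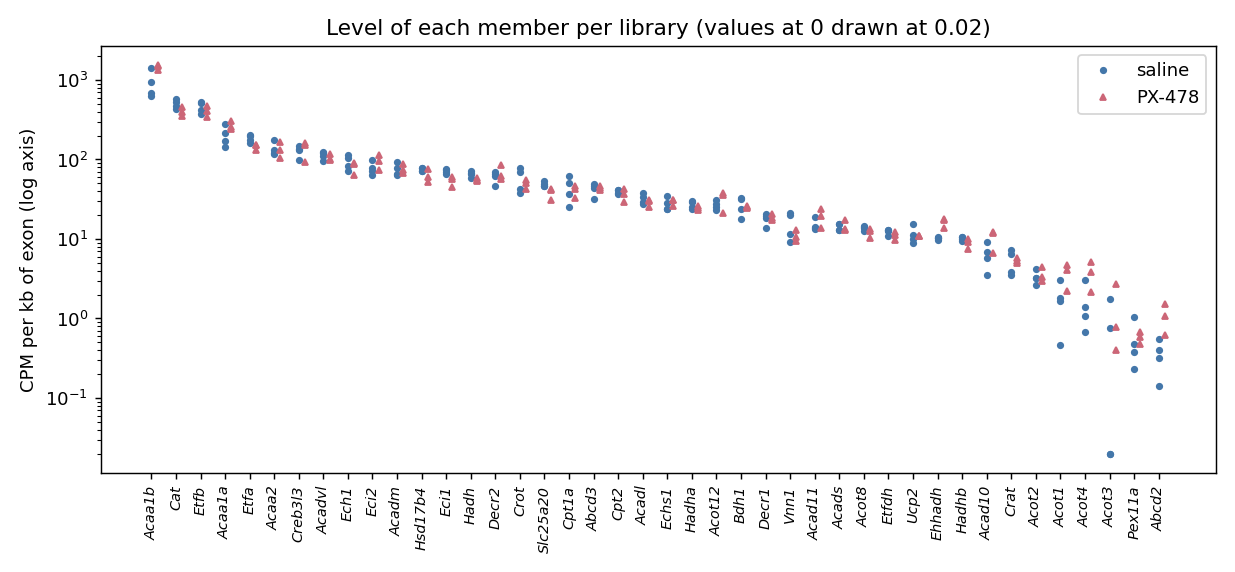
CPM per kb of exon (y axis, log scale) of the 42 genes in each saline (circles) and PX-478 (triangles) library, ordered along the x axis by the saline mean, with values at 0 drawn at 0.02. Acaa1b leads at a saline mean of 919 and Abcd2 closes the order at 0.353, and the libraries of 1 gene spread most for Acot1, Acot3, Acot4 and Abcd2.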

How the data were processed

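Total RNA from 7 livers was sequenced from Illumina libraries, and the submitters' processing notes name featureCounts, edgeR and mm10 without versions. For the aligner and the use of strand, the sources used here give nothing. Per gene, the authors deposited whole-number read counts, not normalized, in 2 columns per library. The columns of a library differed by less than sampling noise (chi-square per gene 0.291 to 0.765, against 49.1 to 145 between libraries of a group), so their mean, rounded, was counted as 1 sample. The 7 columns that average a library were left unused.

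The filter was filterByExpr, scaling was TMM, and groups were compared with edgeR 4.0.16 (quasi-likelihood F test, robust) in R 4.3.3, with Benjamini-Hochberg adjustment over 13693 genes and a threshold of 0.05. Alternatives used DESeq2 1.42.0, limma 3.58.1 (voom), other scalings, filters and columns, a replicate block and each library left out. The test was tried on simulated counts. At the same threshold it recovered 31% of 100 genes given a 2-fold change and 82% of 100 given a 4-fold change, so many smaller changes would be missed. Samples were grouped by title. Since housing and processing of the animals are not stated, p-values measure only the spread between these samples. The members, lists and tests were chosen with earlier results of these data known. Genes given in every library are those at an unadjusted p under 0.05, the 3 largest fold changes and the most abundant per class, with Acat1, Ppara and the 2 smallest p-values per pathway list, and a few added after their values were seen. Some other genes of that rule are not reported here. Exon lengths came from GENCODE, and positions and promoters from RefSeq (GRCm38.p6, whose coordinates mm10 shares). A count of 3 reads was 0.174 to 0.292 CPM per library, for counting error only.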

Additional observations from a re-analysis of the deposited data

Results flagged for a closer look

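Ppara in saline replicate 3, at 84.9 CPM against 168 to 183 CPM in the other saline libraries, stood apart from its group: its gap to the nearest value was 0.845 of the group's range, above Dixon's 95% critical value for a group of 4. The 47 genes checked in the saline group were the 42 and 5 named for the pathway lists, and chance flags about 1 in 20 groups. Over all 76 pathway genes in the table, 5 passed that value, Ppara among them. The PX-478 group of 3 was too small for this check.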

How the results depend on the processing

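Over 19 alternatives none of the 42 genes passed the threshold, and 25 of them kept their sign throughout, including Ehhadh, Abcd2, Acaa1b, Acot1, Acot4, Acad10 and Eci1. The other 17 changed sign in 41 of 798 values. Ehhadh and the others named were picked by unadjusted p in these same libraries, so their kept sign is not independent support. Scaling by library size alone moved the median of all genes to 0.15. It gave 0.019 for Cpt2, 0.037 for Acadvl, 0.020 for Hadha, 0.11 for Acaa2, 0.074 for Bdh1, 0.080 for Ucp2. The replicate block gave 0.15 for Cpt1a, -0.050 for Acadm, -0.012 for Acot2, 0.12 for Ucp2. With the first column alone the log2 fold change of Acot2 was -0.063, and with the second the log2 fold change of Pex11a was -0.029. With single libraries left out, genes that changed sign ran from -0.13 to 0.21 for Crat, -0.21 to 0.13 for Acaa2, -0.12 to 0.67 for Pex11a, -0.22 to 0.049 for Bdh1, -0.093 to 0.14 for Acadm, -0.057 to 0.13 for Decr1, -0.076 to 0.11 for Abcd3, -0.068 to 0.28 for Creb3l3, -0.30 to 0.11 for Cpt1a, -0.084 to 0.23 for Acot2, -0.17 to 0.12 for Ucp2, -0.26 to 0.012 for Cpt2, -0.089 to 2.32 for Acot3, -0.10 to 0.12 for Acads, -0.053 to 0.26 for Decr2; the cause was not tested.

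Genes past the threshold over the whole table were 0 higher and 1 lower, against 4 higher with library size alone, 46 higher and 36 lower in DESeq2, 0 lower in limma-voom, 1 higher and 2 lower with the replicate block, and 0 to 4 higher and 1 to 3 lower with single libraries left out. Members at an unadjusted p under 0.05 were 0 lower with library size alone, 2 lower in DESeq2, 3 higher and 0 lower with the replicate block, and 2 to 8 higher and 0 to 1 lower with single libraries left out. The mitochondrial median was 0.019 and the peroxisomal 0.26 with library size alone, where that of all genes was 0.15. With single libraries left out the mitochondrial and peroxisomal medians ran from -0.20 to -0.067 and from 0.064 to 0.26. The median of the ketone body genes ran from -0.28 to -0.15 with single libraries left out. Replicate numbers name samples only: deviations of same-numbered libraries correlated at -0.02, -0.07 and -0.0017 over genes.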
